A study of Saccharina japonica with 9 samples.

Results

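CHG sites are cytosines followed by A, C or T and then by G. The nuclear CHG sites that the authors listed as methylated in whole-genome bisulfite sequencing (WGBS) of the kelp *Saccharina japonica* were taken as every listed cytosine in a CHG context outside the chloroplast and the mitochondrion. They numbered 6499300 of the 33480993 nuclear sites summed over 9 libraries, or 5850875 different positions. A CHG site on the plus strand was counted as a dyad with the CHG site 2 bases further on the minus strand where both were listed in the same library. There were 80044 such dyads over the 9 libraries, at 77302 positions. The dyads held 2.46% of the CHG sites.

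All libraries came from the strain Ye-c12, from entire bodies, 3 each of diploid sporophytes (SP, 4 months old), haploid female gametophytes (FG, 2 months old) and haploid male gametophytes (MG, 2 months old). The labels name no treatment. According to the study's methods, the gametophytes descended from the blade of a sporophyte and were multiplied by cloning, and SP came from crossing FG with MG. Between SP and the gametophytes, stage, ploidy and age therefore changed together, while FG and MG shared ploidy and age. The p-values below measure the spread between libraries of 1 strain, which the study calls biological replicates. After bisulfite treatment an unmethylated cytosine is sequenced as thymine, and the level of a site is the share of its reads that still show cytosine. A level between 0 and 1 cannot be told apart into a share of cells and a share of molecules within each cell.

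A CHG site whose middle base is A or T is symmetric, since the opposite strand carries a CHG site as well. In land plants, chromomethylases bound to methylated histone H3 restore CHG methylation on the new strand after DNA replication, and CHG methylation marks transposons and other silenced repeats. In the kelp genome, the study found only DNA methyltransferases most similar to the DNMT2 family. It reported no significant homologues of other DNA methyltransferases. How CHG methylation is kept in the kelp was not tested. A CHG site with C in the middle has a CpG cytosine as its partner on the opposite strand and cannot form a dyad. In no library was a CHH site listed at the partner position of a CHG site (0 sites in each of the 9 libraries), as the base rules require.

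Nearly every CHG site rested on a single methylated read. The SP libraries listed 333833, 83410 and 94296 CHG sites, the FG libraries 889114, 668764 and 1136720, and the MG libraries 997985, 1040883 and 1254295. The SP libraries were all below the gametophyte libraries, and SP 1 listed more sites than SP 2 and SP 3. Sites with exactly 1 methylated read made up 96.9%, 97.1% and 96.4% of these in the males, 97.1%, 97.7% and 96.8% in the females and 98.7%, 98.9% and 98.8% in the sporophytes. The median coverage of a CHG site was 7 to 10 reads, so that 1 methylated read set a median level of 0.1 to 0.143. Coverage ranged from 5 reads, the lowest in any list, to 3184 reads. A site that was not listed in a library can be unmethylated there or covered by fewer reads. It can also be covered so deeply that its few methylated reads did not pass the call.

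The lists also differed in ways that the stages do not explain. Solved from the deposited p-values, the background rate behind CHG calls was 0.0179% in SP 1 and 0.0627% to 0.0702% in the other libraries. As a result, CHG sites with 1 methylated read were listed up to a coverage of 284 reads in SP 1 and up to 71 to 81 reads elsewhere. Plus-strand sites made up 49.95% to 50.06% of the CHG sites in SP 1, FG 1, FG 2, MG 1 and MG 2 but 50.52% to 50.83% in SP 2, SP 3, FG 3 and MG 3. The labels name no batch, and the part of these differences in the results below was not tested.

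The number of CHG sites was 1097721 ± 137283 in MG, 898199 ± 234110 in FG and 170513 ± 141544 in SP (SD, n = 3 each). SP did not overlap with FG or with MG (exact two-sided permutation p = 0.1 for both, which is the lowest value possible with 3 libraries a stage, adjusted p = 0.214 over 15 tests). MG and FG overlapped (exact permutation p = 0.3, adjusted p = 0.409). At least 2 methylated reads were seen at 3.22% ± 0.371 of the CHG sites in MG, 2.80% ± 0.447 in FG and 1.21% ± 0.119 in SP. Again SP lay below every gametophyte library (exact permutation p = 0.1 against each stage, adjusted p = 0.214), whereas FG and MG overlapped (exact permutation p = 0.4, adjusted p = 0.5).

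The weight of the CHG context among all contexts set SP 2 and SP 3 apart, and not the sporophyte as a stage. The males had 19.8%, 19.8% and 20.1% of their nuclear sites in the CHG context, the females 19.8%, 19.4% and 19.6%, and SP 1 had 19.6%. In SP 2 and SP 3 their share was 12.2% and 11.9%. The mean over SP was 14.6% ± 4.37, against 19.6% ± 0.183 in FG and 19.9% ± 0.157 in MG (exact permutation p = 0.3 for FG against SP and p = 0.1 for MG against SP). A single methylated read is enough for a listing up to different coverages in each context. Restricted to sites covered by 5 to 14 reads, the share was still 11.8% in SP 2 and 11.4% in SP 3, and 19.0% to 19.5% in the other libraries. The low share was not particular to CHG. Without that restriction, CHH sites were 196666 of 684742 nuclear sites in SP 2 and 224362 of 791198 in SP 3. In SP 1 they were 908354 of 1702060. CpG sites numbered 404666 in SP 2, 472540 in SP 3 and 459873 in SP 1. The mean level of CHG sites overlapped between all stages, with 0.125 ± 0.0113 in MG, 0.131 ± 0.0101 in FG and 0.129 ± 0.0111 in SP (exact permutation p = 0.5 to 0.6).

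**Figure D1:**
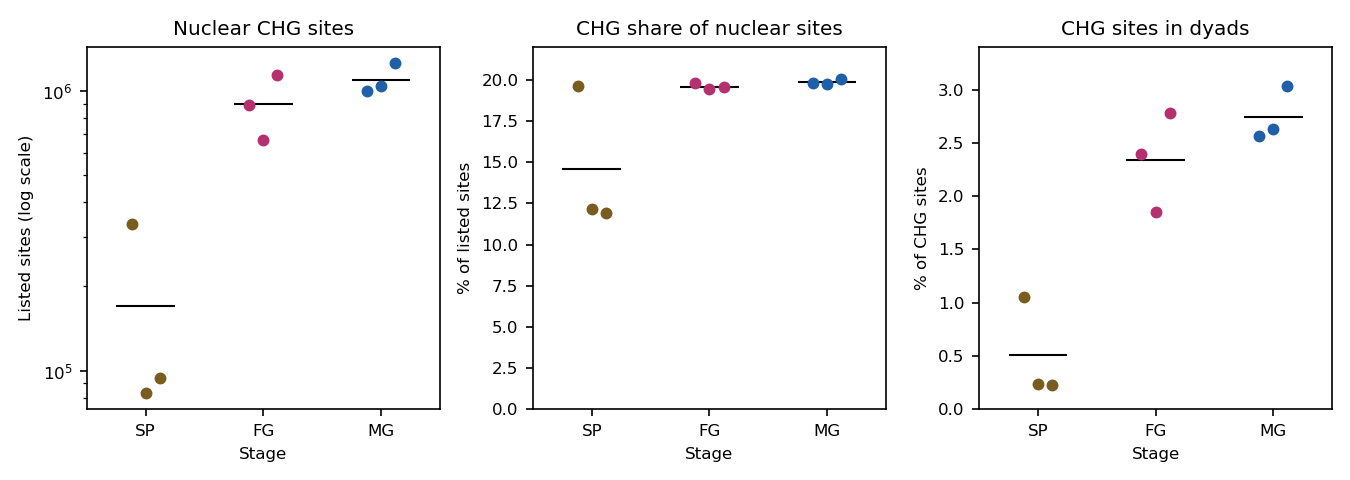
Nuclear CHG sites in each library (points) with the mean of each stage (lines), as the number listed on a log scale, the share of all nuclear listed sites and the share of CHG sites in dyads. SP 1 lies with the gametophytes at 19.6% in the middle panel, while SP 2 and SP 3 lie at 12.2% and 11.9%.

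Dyads were more frequent in the libraries with more listed sites. SP 1, SP 2 and SP 3 held 1762, 98 and 107 dyads. FG held 10634, 6198 and 15788, and MG held 12776, 13667 and 19014. The share of CHG sites in a dyad was 2.56%, 2.63% and 3.03% in MG, while FG had 2.39%, 1.85% and 2.78% and SP had 1.06%, 0.235% and 0.227%. SP lay below FG and MG (exact permutation p = 0.1 in both comparisons, adjusted p = 0.214), and FG and MG overlapped (exact permutation p = 0.3, adjusted p = 0.409). Both strands showed exactly 1 methylated read in 87.5% of all dyads, and in 73.4% of those in SP 1. With at least 2 methylated reads demanded of both strands, MG kept 434, 427 and 738 dyads, FG kept 446, 257 and 734, and SP kept 421, 1 and 2. Under that demand the shares of sites in dyads no longer ordered the stages, since SP 1 rose to 19.0% and the gametophytes to at most 4.06%.

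Sites with more methylated reads were more often in a dyad in the gametophytes and in SP 1. Of the CHG sites with 1 methylated read, 2.26%, 1.76% and 2.62% were in a dyad in FG, and 2.44%, 2.51% and 2.88% in MG. Of those with at least 2 methylated reads, the shares were 6.89%, 5.94% and 7.61% in FG and 6.35%, 6.43% and 6.93% in MG. SP 1 gave 0.8% and 20.04%, but the latter holds 1576 sites at a level of 0.5 or more among 4442, of which 49.7% were in a dyad. The sites with at least 2 methylated reads but a level below 0.5 were in a dyad in 3.70% of cases in SP 1, in 5.19% to 6.08% in FG and in 5.88% to 6.25% in MG. SP 2 and SP 3 had 0.234% and 0.224% of sites with 1 methylated read in a dyad, and 0.329% and 0.441% of those with more. Coverage moved with these values. A strand covered by more than 100 reads was part of 7.95% of the dyads of SP 1 and of 2.85% to 3.25% of those of the gametophytes, while such depth was seen at 0.841% of the CHG sites of SP 1 and at 0.219% to 0.351% of those of the gametophytes. CHG sites that had a listed CpG cytosine at the partner position, which are those with C in the middle, made up 0.334% of the sites of SP 1, 0.443% to 0.654% of those of FG and 0.62% to 0.666% of those of MG.

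Between sites on opposite strands, the distance of the dyad held the most pairs in the raw lists of SP 1, FG and MG, but not in those of SP 2 and SP 3. Pairs at +2 outnumbered the median distance from 3 to 20 bases by 14.4 times in SP 1, by 15.7 to 16.4 times in FG and by 15.8 to 17.1 times in MG. In SP 2 and SP 3 they did so by 12.25 and 10.7 times, but there the distance -1, at which the minus-strand cytosine lies directly before the plus-strand one, held more pairs, with 131 against 98 and 140 against 107. In the other libraries the distance -1 held 190 pairs in SP 1, 601 to 1468 in FG and 1197 to 1636 in MG, which was below the number of dyads in each. A symmetric CHG site has an opposite-strand CHG cytosine at +2 by sequence alone, so the raw number of pairs does not separate sequence from methylation. The opposite-strand cytosines were therefore taken only where another library had listed them as CHG sites, and it was asked how often the library itself listed them too.

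Measured in this way, the partner of a listed CHG site was listed about as often as the opposite-strand CHG cytosines at 3 to 20 bases on either side, which leaves out the distance -1. In MG 3, 7.27% of the 137895 partners known from other libraries were listed, against 7.004% of the cytosines at 3 to 20 bases. In FG 3 the values were 6.67% and 6.63%, in FG 1 6.19% and 6.09%, and in FG 2 4.86% and 5.004%. MG 1 gave 6.52% and 6.45%, and MG 2 gave 6.43% and 6.40%. SP 1 listed 3.36% of the partners and 3.29% of the other cytosines. In SP 2 and SP 3 the partner was the rarer, with 0.647% against 0.723% and 0.566% against 0.679%, though these rest on 71 and 72 listed partners. The known cytosine at -1 was listed in 1.96% and 1.77% of cases in SP 2 and SP 3, and so more often than the partner, on 77 and 82 listed cytosines. It was listed less often than the partner in the other 7 libraries, with 2.74% in SP 1, 4.80% to 5.94% in FG and 5.73% to 6.04% in MG. The ratio of partner to reference ran from 0.834 to 1.04 over the 9 libraries. Its mean was -0.04 ± 0.106 on the log2 scale, above 0 in 6 of 9 libraries (SD, n = 9, exact two-sided sign-flip permutation p = 0.438). In the 6 gametophyte libraries the mean was 0.01 ± 0.0316 (exact sign-flip p = 0.438).

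**Figure D2:**
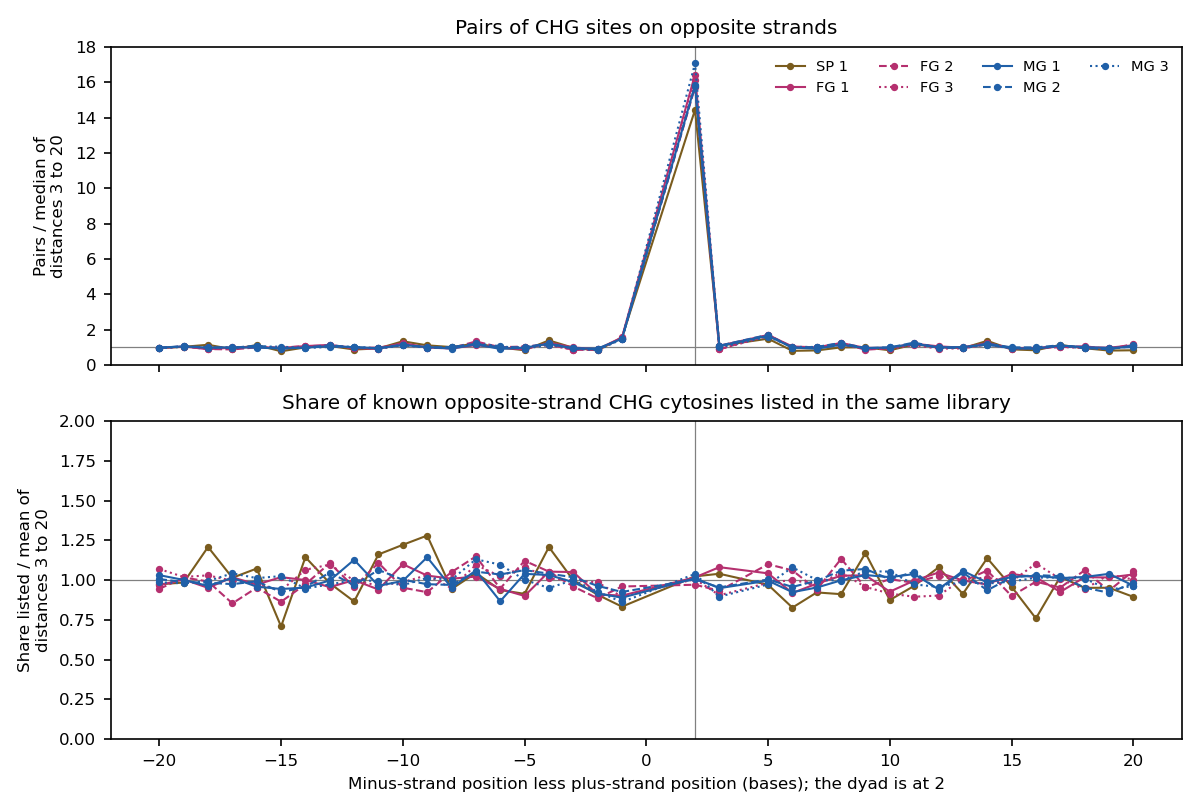
Pairs of CHG sites on opposite strands by distance, in FG, MG and SP 1 (SP 2 and SP 3, with 98 and 107 dyads, are left out of the plot). The upper panel gives the number of pairs over the median of distances 3 to 20, with a peak of 14.4 to 17.1 at 2 bases, and the lower panel the share of known cytosines listed in the same library over its mean at distances 3 to 20, which is between 0.971 and 1.04 at 2 bases; distances at which the base rules allow no pair have no point.

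CpG sites, whose partner is 1 base away, gave ratios in an overlapping range. The log2 ratio for CpG partners ran from -0.03 in MG 2 to 0.09 in SP 2. CHG exceeded CpG in 4 of 9 libraries, and the difference of the log2 ratios had a mean of -0.06 ± 0.130 (SD, n = 9, exact sign-flip permutation p = 0.34). The largest differences were those of SP 2 and SP 3, at -0.25 and -0.31. Over the 6 gametophyte libraries the difference was 0.01 ± 0.0408 (exact sign-flip p = 0.781).

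**Figure D3:**
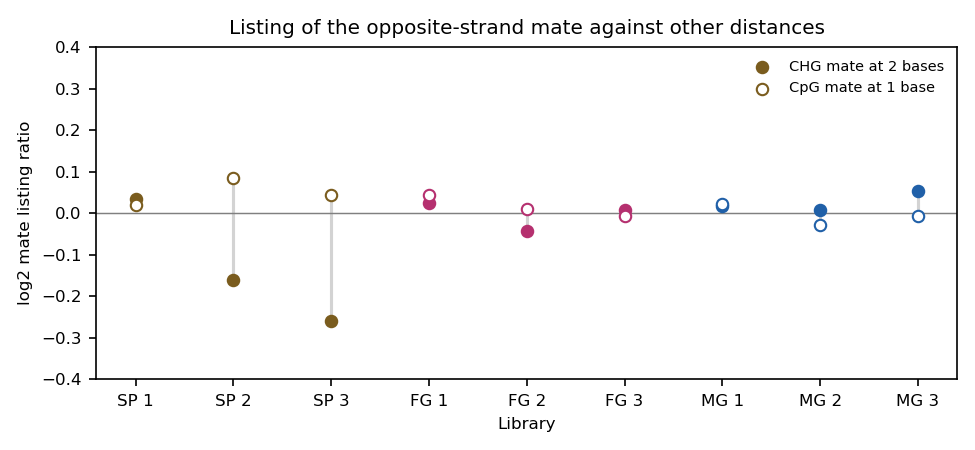
Log2 ratio of the share of known partners listed to the share of other opposite-strand cytosines listed, in each library, for CHG (filled) and CpG (open). In the 6 gametophyte libraries the CHG values lie between -0.04 and 0.05, and the lowest values, -0.16 and -0.26, are those of SP 2 and SP 3.

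In most libraries, partners were listed about as often for the sites of other libraries as for the library's own sites. Of the CHG sites of MG 3, 3.03% had their partner listed in MG 3. Of the CHG sites listed in the other 8 libraries, 2.78% to 3.08% had their partner listed in MG 3. FG 3 gave 2.78% for its own sites and 2.64% to 2.88% for those of other libraries. The library's own value lay within the range of the others in SP 2, SP 3, FG 1, FG 3, MG 2 and MG 3, and above it in SP 1, FG 2 and MG 1. The excess was widest in SP 1, at 1.06% against 0.796% to 0.905%. Without sites at a level of 0.5 or more, the value of SP 1 was 0.825%, within 0.781% to 0.905%, while FG 2 and MG 1 remained above their ranges. With coverage held to 5 to 14 reads, SP 1 stayed above, at 0.745% against 0.556% to 0.602%, and FG 2 and MG 1 lay within. In this window SP 2 moved slightly above its range, at 0.1699% against at most 0.1683%. SP 3 moved slightly below, at 0.1659% against at least 0.1667%.

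Neighbours on the same strand were listed together more often than those on opposite strands. At 3 to 20 bases, known CHG cytosines on the same strand were listed in 8.96%, 7.04% and 9.03% of cases in FG, in 8.97%, 8.96% and 10.03% in MG, and in 5.13%, 1.40% and 1.35% in SP. This was 1.36 to 1.47 times the opposite-strand share in FG, 1.39 to 1.43 times in MG and 1.56 to 1.99 times in SP. With coverage held to 5 to 14 reads the ratio was 1.73 to 2.32. The same-strand share was the higher in all 9 libraries. Neighbours on the same strand can lie in the same read, so their values are not independent, and no test was made of this order.

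Single CHG sites rarely came back. Of the 5850875 positions, 90.1% were listed in 1 library, 8.96% in 2 and 0.844% in 3. In all 9 libraries 3 positions were listed. Of the 77302 dyads, 97.3% were listed in 1 library, 2.15% in 2 and 0.351% in 3. In 4 libraries the share was 0.0918% of dyads and 0.104% of sites, and in 5 it was 0.0660% and 0.0189%, so that the dyads had the smaller shares at 2 to 4 libraries and the larger at 5. Dyads listed in 4 or more libraries numbered 146. No dyad was listed in all 3 SP libraries, 51 were listed in all 3 FG libraries and 77 in all 3 MG libraries. In all 6 gametophyte libraries 21 dyads were listed. Sites of SP 2 were found in SP 3 in 1.45% of cases, whereas sites of the other 7 libraries were found in SP 3 in 0.372% to 0.404% of cases.

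The dyads listed in 4 or more libraries were of different kinds. Of the 146, 119 on 19 scaffolds were covered by more than 100 reads wherever listed, with a median level of 0.617%. The remaining 27, on 4 scaffolds, had a median level of 100%, but their levels ran from 0.690% to 100% and their coverage from 5 to 298 reads. The most recurrent of the deeply covered kind lay between positions 14822 and 15118 of scaffold 2425. These 6 dyads were the first in the order by number of libraries. The foremost, with its plus-strand site at position 14967 and its minus-strand site at 14969, was listed in 7 libraries. On the plus strand it had 3 methylated of 1991 reads in SP 1, 12 of 1416 in FG 1, 9 of 1347 in FG 2, 11 of 2026 in FG 3, 9 of 1399 in MG 1, 4 of 1315 in MG 2 and 10 of 2398 in MG 3. On the minus strand the levels ran from 0.254% in FG 3 to 1.19% in MG 2. The next, at 14822 and 14824, was also listed in 7 libraries, with levels of 0.132% in SP 1 to 1.02% in MG 1. The others, at 15014, 15035, 14974 and 15116 on the plus strand, were each listed in 6 libraries. SP 1 had the lowest level of all libraries on every strand of these 6 dyads at which it was listed, apart from the minus strand of the first, where FG 3 was lower. SP 1 is also the library with the lowest background rate, and the part of that rate in these levels was not tested.

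The dyads covered by 10 to 100 reads wherever listed were ordered in the same way, by number of libraries and then by methylated reads. The first 6 of them were methylated on nearly every read of both strands. With the coverage capped, breaking ties by methylated reads itself favours high levels, so these levels are not a separate result. Dyads in 4 or more libraries with sites below 10 reads are left out of this order. They include others of scaffold 14100, which had 13 dyads in 4 or more libraries at a coverage of 5 to 49 reads, 10 of scaffold 5821 at 5 to 37 reads and 3 of scaffold 9758 at 5 to 39 reads. On scaffold 14100, the dyad at 316 and 318 was listed in 5 libraries. SP 1 showed 45 of 45 methylated reads on the plus strand and 47 of 47 on the minus strand. FG 1 showed 35 of 37 and 27 of 27, FG 2 12 of 13 and 11 of 12, MG 1 9 of 11 and 16 of 16, and MG 2 10 of 10 and 12 of 13. SP 2, SP 3, FG 3 and MG 3, the libraries with the larger plus-strand share, did not list either strand. The other 5 lay on scaffold 11701 and were listed in 3 libraries each. Its dyad at 339 and 341 had 17 of 17 and 12 of 12 methylated reads in SP 1, 21 of 21 and 43 of 43 in FG 3, and 36 of 36 and 54 of 54 in MG 3. The dyads of this scaffold with plus-strand sites at 320, 323, 350 and 398 were at 100% on both strands in the same 3 libraries and unlisted in the other 6.

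Sites at a level of 0.5 or more were few and patchy. MG had 300, 289 and 1040 of them, FG had 510, 467 and 1757, and SP had 1576, 1 and 0. SP 1 and SP 2 are the same stage, yet SP 1 had the second highest number of all libraries. At most 151 sites of a library lay from 0.5 up to 0.9, and 1389 of the 1576 sites of SP 1 were methylated on every read. In SP 1, FG 3 and MG 3, 89.9%, 90.0% and 83.8% of these sites lay on scaffolds with at least 20 of them. The share was lower in FG 1, FG 2, MG 1 and MG 2, with 66.3%, 70.4%, 60.7% and 65.4%. There were 36 such scaffolds over all libraries, of which 29 had no listed site beyond position 2000 and so were, as far as listed, short.

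Of the sites at this level, 25.95% to 52.0% were in a dyad in the 7 libraries with more than 1 of them. A dyad needs both strands listed, so a site whose partner was unmethylated, and so unlisted, does not count here as a dyad with 1 high strand. Where both strands were listed, they were mostly high together. Summed over libraries, 1273 dyads had a level of 0.5 or more on both strands and 32 on a single strand only. SP 1 had 392 on both strands and 0 on a single strand. FG had 118, 70 and 349 on both, with 3, 0 and 13 on a single strand, and MG had 44, 36 and 264, with 0, 3 and 13. Sites of the other contexts reached this level, too. SP 1 had 1101 CpG and 5040 CHH sites at a level of 0.5 or more beside its 1576 CHG sites, and FG 3 had 1715 and 5699 beside its 1757. CHG sites made up 17.3% to 21.1% of all sites at this level in the 7 libraries that had more than 1, which is near their share of all sites.

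The patches differed between libraries of the same stage and recurred across stages. On scaffold 5821, CHG sites at a level of 0.5 or more numbered 109 in SP 1, 89 in FG 1, 34 in FG 2, 41 in MG 1 and 13 in MG 2, and 0 in the other libraries. In SP 1 they lay between positions 3523 and 5330, with a mean level of 98.1% and a median coverage of 11 reads, beside 48 CpG and 329 CHH sites at this level on the same scaffold. On scaffold 9156 the numbers were 85 in SP 1, 86 in FG 3 and 90 in MG 3, and 0 in the other libraries, with mean levels of 100%, 100% and 99.9% between positions 141 and 1180. Scaffold 6715 had 30 in SP 1, 140 in FG 3 and 161 in MG 3, and again 0 elsewhere. The longest patch was that of scaffold 2215, where FG 3 had 682 CHG sites from position 125 to position 57597, FG 2 had 33 and MG 3 had 55. Of the 780 dyads at this level in any library, 334 recurred in 2 or more. FG 3 shared 185 of its 349 with MG 3 and 0 with FG 1. FG 1 shared 110 of its 118 with SP 1. FG 3 and MG 3 are among the libraries with the larger plus-strand share and FG 1 is not, while SP 1 shared 71 with FG 3 and 76 with MG 3 as well. The part of this difference in the sharing was not tested. Some of the scaffolds were read in libraries without sites at this level. Scaffold 2915 had 0 such sites but 117, 218 and 209 CHG sites below 0.5 in SP 1, MG 1 and MG 2, beside 277 at 0.5 or more in FG 3 and 263 in MG 3. Scaffold 4565 had 0 and 51 in MG 1, and 0 and 47 in MG 2. Scaffolds 5821, 9156 and 6715 had no listed CHG site at all in the libraries at 0. Their sites can then be unmethylated or uncovered there, or hold methylated reads too few to pass the call.

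**Figure D4:**
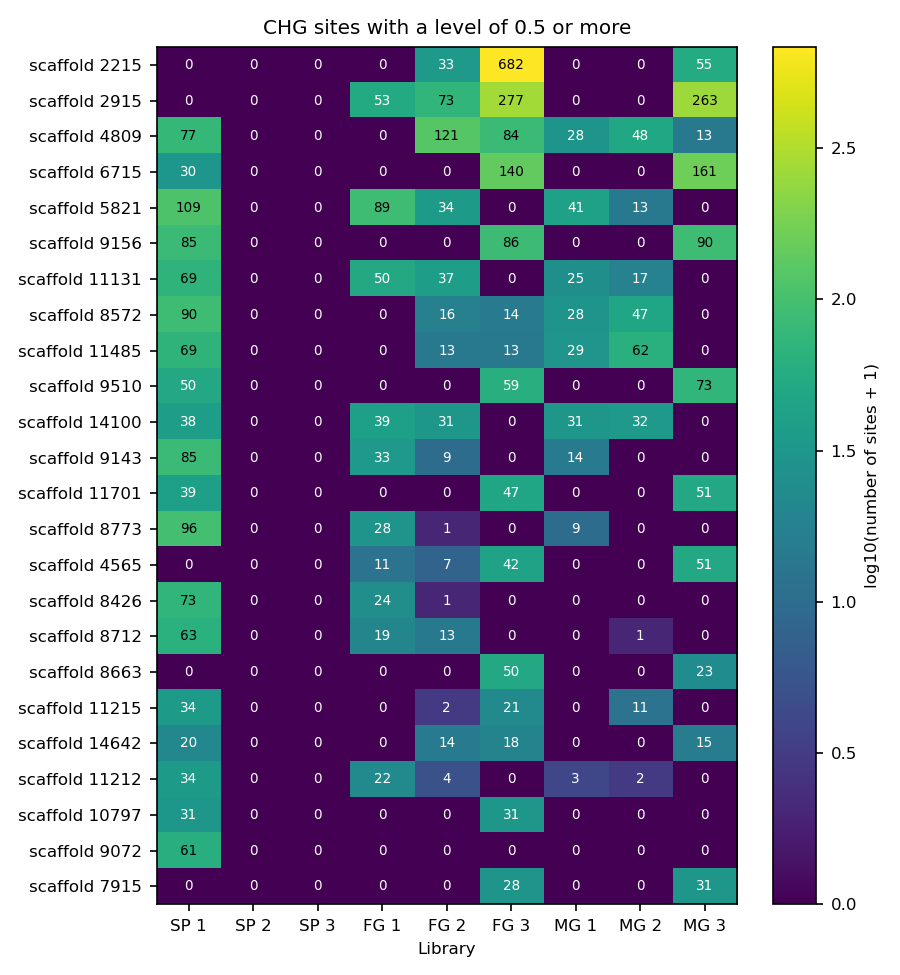
Number of CHG sites with a level of 0.5 or more on the 24 scaffolds with most of them (rows), in each library (columns); the colour is the log10 of the number + 1. SP 2 and SP 3 have 0 on all of these scaffolds, while scaffold 9156 has 85 in SP 1, 86 in FG 3 and 90 in MG 3.

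CHG methylated reads were also summed in bins of 10 kb to compare MG with FG along the scaffolds, in a fit with the CpG and CHH bins. Of 55391 CHG bins tested, 3341 were higher and 639 were lower in MG (edgeR quasi-likelihood test, adjusted p below 0.05). The lower bins numbered 390 without MG 2 and 411 without MG 1. Together this was 7.19% of the CHG bins, against 7.47% of the bins of all contexts. The background was 6.12% for higher and 1.35% for lower bins. MG had more methylated reads per mapped read, with a median log2 difference of 0.15 over all bins. The size of this shift depended on single libraries, being 0.07 without FG 2 and 0.30 without FG 3. With TMM scaling, which removes that shift, 2798 CHG bins were higher and 1089 lower, so that the higher share fell from 83.9% to 72.0% of calls.

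CHG bins seldom changed alone. Over all tested bins, 5745 of 57196 were called for CHH and 2843 of 55631 for CpG, in either direction. Of the 3980 called CHG bins, 3662 were also called in the same direction for CHH and 2125 for CpG, and 277 (6.96%) were called in neither. In 509 of the higher bins, on 169 scaffolds, no CHG read was listed in any FG library. SP 1 had CHG reads in 324 of these bins, SP 2 in 109 and SP 3 in 90. These shares were smaller than in the 2832 higher bins with FG reads. There SP 1 had CHG reads in 2740 bins, SP 2 in 2119 and SP 3 in 2208. In the 2832 higher bins with FG reads the median log2 difference was 1.28. In 34 lower bins, on 29 scaffolds, no MG library had a CHG read, and in the other 605 lower bins the median was -1.20.

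The largest fitted differences were those of neighbouring bins of scaffold 1304. From position 90001 to 100000, MG had 266, 249 and 244 CHG methylated reads, FG 0, 0 and 0, and SP 55, 11 and 11. From 100001 to 110000, MG had 227, 247 and 219 and FG 0, 0 and 0, and from 110001 to 120000 MG had 228, 223 and 215 and FG 0, 0 and 0. Taken against 3 reads per library, MG was at least 79.6-fold, 72.7-fold and 69.8-fold higher in these bins (edgeR adjusted p = 3.19e-26, 9.91e-26 and 1.38e-25). CHH and CpG reads of the same bins were called in the same direction. In these unscaled counts SP lay between, with all 3 libraries above 0. The SP libraries also had fewer CHG methylated reads in total, with 350641, 84402 and 95553 against 1034359 to 1314602 in MG. The part of these totals in the gap between SP and MG was not tested.

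In the other direction the libraries varied more. On scaffold 3828, from position 1 to 10000, FG had 1, 81 and 56 CHG methylated reads and MG 0, 0 and 0 (at least 17.3-fold lower in MG against 3 reads per library, edgeR adjusted p = 2.38e-10), and all SP libraries were at 0. FG 1, with 1 read, was close to MG. On scaffold 11302, from position 1 to 10000, FG had 12, 4 and 10 reads and MG 0, 0 and 0 (at least 2.99-fold lower, edgeR adjusted p = 0.000108), with SP at 4, 0 and 0. There the CHH reads were called in the same direction, but the CpG reads were not called (log2 -1.21, edgeR adjusted p = 0.732). On scaffold 2653, from position 10001 to 20000, FG had 1, 8 and 14 and MG 0, 0 and 0 (at least 2.72-fold lower, edgeR adjusted p = 0.000541), with SP at 0. Bins without listed reads in a stage can be unmethylated or uncovered there, or hold methylated reads too few to pass the call, and these cannot be told apart.

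Few dyads were listed in every library of a stage with neither strand listed in any other library. There were 0 in SP, 0 in FG and 2 in MG. On scaffold 5263, the sites at 1550 and 1552 had 1 of 61 and 1 of 39 methylated reads in MG 1, 2 of 68 and 2 of 35 in MG 2, and 2 of 133 and 1 of 59 in MG 3. On scaffold 2425, the sites at 10098 and 10100 had 2 of 185 and 2 of 231 in MG 1, 2 of 192 and 3 of 223 in MG 2, and 2 of 213 and 3 of 269 in MG 3. Both rest on 1 to 3 methylated reads per strand in each library. Outside SP 1, no CHG site with 1 methylated read was listed above a coverage of 81 reads. A strand unlisted in the other stages can therefore still hold a methylated read.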

How the data were processed

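WGBS libraries of 3 SP, 3 FG and 3 MG samples were used, grouped by their labels. Per the study's methods, the authors quality-trimmed the reads, used Bismark with its defaults to map them to scaffolds and organelles, and discarded duplicates. The build is not given in the sources used here, and positions are those of the lists. The deposited counts, methylated and unmethylated reads per listed cytosine, were not normalized. Levels were deposited as a fraction of the reads. The deposited p-value and corrected p-value equal those of a binomial test with 1 rate per library and context, the authors' test being not given in the sources used here, and all listed CHG sites had a corrected p below 0.05. The depth per site was at least 5 reads. Listed counts are not independent molecules.

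Sites were counted per library, and stages were compared with exact two-sided permutation tests, adjusted with Benjamini-Hochberg over 15 tests. Partner listing was compared over 9 libraries with an exact sign-flip permutation, whose smallest p is 0.00391. Methylated reads in bins of 10 kb with at least 10 reads over the 6 libraries were tested with edgeR 4.0.16 (quasi-likelihood), with the mapped reads that the study gives as library sizes and an adjusted p below 0.05. Of the called bins without overlap between MG and FG libraries, the 3 with the largest fitted change were named in each direction. Dyads were named as the 6 listed in most libraries, ties by methylated reads, the 6 first among those with a coverage of 10 to 100 reads wherever listed, and up to 3 per stage listed in all its libraries with neither strand listed elsewhere. On simulated counts for MG against FG (168218 rows), 11 of 100 CHG bins changed 2-fold and 67 of 100 changed 4-fold were recovered, with 8 false calls. R 4.3.3, DESeq2 1.42.0, Python 3.11.15, numpy 2.4.6 and pandas 2.3.3 were used.

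The alternatives were other minima of coverage and methylated reads, other reference distances, bin lengths, scalings and filters, a replicate block, and leaving out each library. Members and rules were chosen with earlier results of these data known. The window of 5 to 14 reads, leaving out levels of 0.5 or more and the 6 gametophyte libraries alone were added after seeing the data. Sequences and genes were not analysed here.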

Additional observations from a re-analysis of the deposited data

How the results depend on the processing

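With 3 libraries a stage, the exact permutation p of a stage difference cannot fall below 0.1. Passing 0.05 was therefore impossible for the stage differences under every alternative. The partner ratios could pass 0.05 but did not under any alternative. Only directions are compared here. Of 174 values of stage differences, 163 kept their direction. With at least 4 methylated reads, MG minus FG was -129.67 sites, MG minus FG of the share in dyads was -2.69 percentage points and MG minus SP of the mean level was 0.00185. With at least 2 methylated reads, the share in dyads gave -0.662 for MG minus FG, -2.9 for FG minus SP and -3.56 for MG minus SP, and the mean level of FG minus SP was -0.0552. With a coverage of at least 10 reads, MG minus SP of the mean level was 0.00114. Leaving out 1 library moved the mean level of FG minus SP between -0.00419 and 0.00786, being negative without SP 1 (-0.00419) and without FG 2 (-0.00164), and that of MG minus SP between -0.0107 and 0.00207, the latter without MG 3.

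The log2 partner ratio of CHG was 0.36 with at least 2 methylated reads (p = 0.121 by exact sign-flip permutation), where SP 3 alone was at 2.35 on 2 dyads, and 0.011 over the gametophytes. CHG minus CpG was 0.37 with at least 2 methylated reads, 0.00762 with a coverage of at least 10 reads and 0.00601 over the gametophytes. The causes were not tested.

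Called CHG bins of MG against FG, 3980 in number, were 2243 with DESeq2, 1148 with a coverage of at least 10 reads, 104 with at least 2 methylated reads, 1557 in bins of 50 kb and 1721 at a coverage of 5 to 14 reads, the last 3 of which tested 9290, 15035 and 54847 bins. Leaving out 1 library gave 2704 to 4415, and the 639 lower bins became 390 without MG 2 and 411 without MG 1. The 6 named bins kept their direction and call wherever tested, except scaffold 2653 with DESeq2 (adjusted p = 0.0545). Same-numbered MG and FG libraries deviated together with correlations of 0.0344, 0.0268 and 0.12 over bins. Differently numbered ones gave -0.0757 to 0.0385, so MG 3 with FG 3 was the highest. The numbers were not taken as pairs. With the replicate block 4471 bins were called.

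Depth limits single sites. At a median coverage of 7 to 10 reads a level below 0.1 cannot be seen from a single read, and a dyad needs both strands covered by at least 5 reads.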
